A study of Mus musculus with 4 samples.

Results

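The 40 genes described here encode proteins of the dividing cell, and all 40 had a row in a table of 17230 genes counted by bulk RNA sequencing. They were chosen by name and fall into 20 genes of replication licensing and S phase, from Mcm2 to Cdc45, and 20 genes of G2 and mitosis, from Mki67 to Nusap1. All 40 passed the low-count filter that kept 14330 genes. The libraries came from marrow cells sorted from mouse femurs at postnatal day 21. Hes1-derived cells carried Cxcl12(GFP/+), Hes1(CreER/+) and R26R(tdTomato/+), and Fgfr3-derived cells carried Cxcl12(GFP/+), Fgfr3-iCreER and R26R(tdTomato/+). Both groups received tamoxifen at embryonic day 12.5, which switches on a lasting tdTomato mark in cells where the Cre is active, and in both the GFP allele reports the Cxcl12 locus of CXCL12-abundant reticular (CAR) cells, the stromal cells that feed blood progenitors. The cell type label gives a GFP and tdTomato sort, while the extraction protocol names tdTomato alone and a single-cell loading, so the gate is uncertain. The series title sets perichondrium-derived against chondrocyte-derived cells, but the Cre line differs with the origin, and these cannot be told apart here. Each group had 2 libraries, replicates 1 and 3 for Hes1-derived and replicates 2 and 3 for Fgfr3-derived cells. The labels do not say whether these are separate animals or pools, so p-values measure only the spread between these libraries.

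Before a cell copies its DNA, Cdc6 and Cdt1 load a ring-shaped helicase made of Mcm2 to Mcm7 onto replication origins, and cyclin E with CDK2, Cdc45 and the GINS proteins then set it in motion. The genes for these proteins are classical targets of E2F factors. Genes of G2 and mitosis, which build the spindle, attach chromosomes to it and time their separation, are typically switched on later through a promoter element called the cell cycle genes homology region (CHR). In marrow, erythroid precursors, B-cell precursors and neutrophil progenitors divide often, whereas reticular stroma divides seldom.

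The depth was 22745128 and 23625327 reads for Hes1-derived replicates, against 26025607 and 26804832 for the Fgfr3-derived pair. All 27 genes of a reticular stroma list had reads in every library, with a summed level of 31100 and 19890 CPM (reads per 1000000, scaled with TMM factors) in Hes1-derived and 50300 and 34160 CPM in Fgfr3-derived libraries. The reporter row eGFP stood at 6669 and 3204 CPM in Hes1-derived libraries, against 9264 and 6754 CPM in Fgfr3-derived libraries (edgeR adjusted p = 0.35). The tdTomato-WPRE row stood at 228.8 and 112.8 CPM in Hes1-derived libraries, against 382.1 and 510.4 CPM in Fgfr3-derived libraries. Its log2 fold change, Hes1-derived minus Fgfr3-derived, was −1.39 (edgeR adjusted p = 0.04998). Markers of blood cells were present as well. A pan-leukocyte list of 24 genes, all with reads in every library, summed to 7836 and 8914 CPM in Hes1-derived replicates 1 and 3, against 2270 and 4642 CPM in Fgfr3-derived replicates 2 and 3. Fgfr3-derived replicate 2 stood apart with the lowest pan-leukocyte and the highest stromal level.

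In Hes1-derived libraries 25 of the 40 genes were higher, in both phases, and none was lower. Of the 20 S-phase genes 11 rose and none fell, and of the 20 G2 and mitosis genes 14 rose and none fell, by edgeR's quasi-likelihood test with Benjamini-Hochberg adjustment over all tested genes and a threshold of 0.05. Over all 14330 genes, 5.24% were called higher and 6.56% lower. The log2 fold change was above 0 for all 40 members, against 48.5% of all genes, and its median was 0.94 for S-phase genes and 0.93 for G2 and mitosis genes, against −0.02 over all genes. Both Hes1-derived libraries lay above both Fgfr3-derived libraries for 39 of the 40 members, against 29.8% of all genes, while 32.1% of all genes had both below. The exception was Bub1. How many members passed depended on which libraries were present. Leaving out Fgfr3-derived replicate 2, edgeR called no member (33 of 40 had an unadjusted p under 0.05) and 0.558% of all genes higher, with medians of 0.80 for S-phase and 0.82 for G2 and mitosis genes. Leaving out Hes1-derived replicate 3, it called Mki67 and Ube2c and 2.26% of all genes. Leaving out Hes1-derived replicate 1, it called 2 S-phase and 8 G2 and mitosis genes and 3.50% of all genes. Leaving out Fgfr3-derived replicate 3, it called 12 S-phase and 11 G2 and mitosis genes and 8.05% of all genes.

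**Figure D1:**
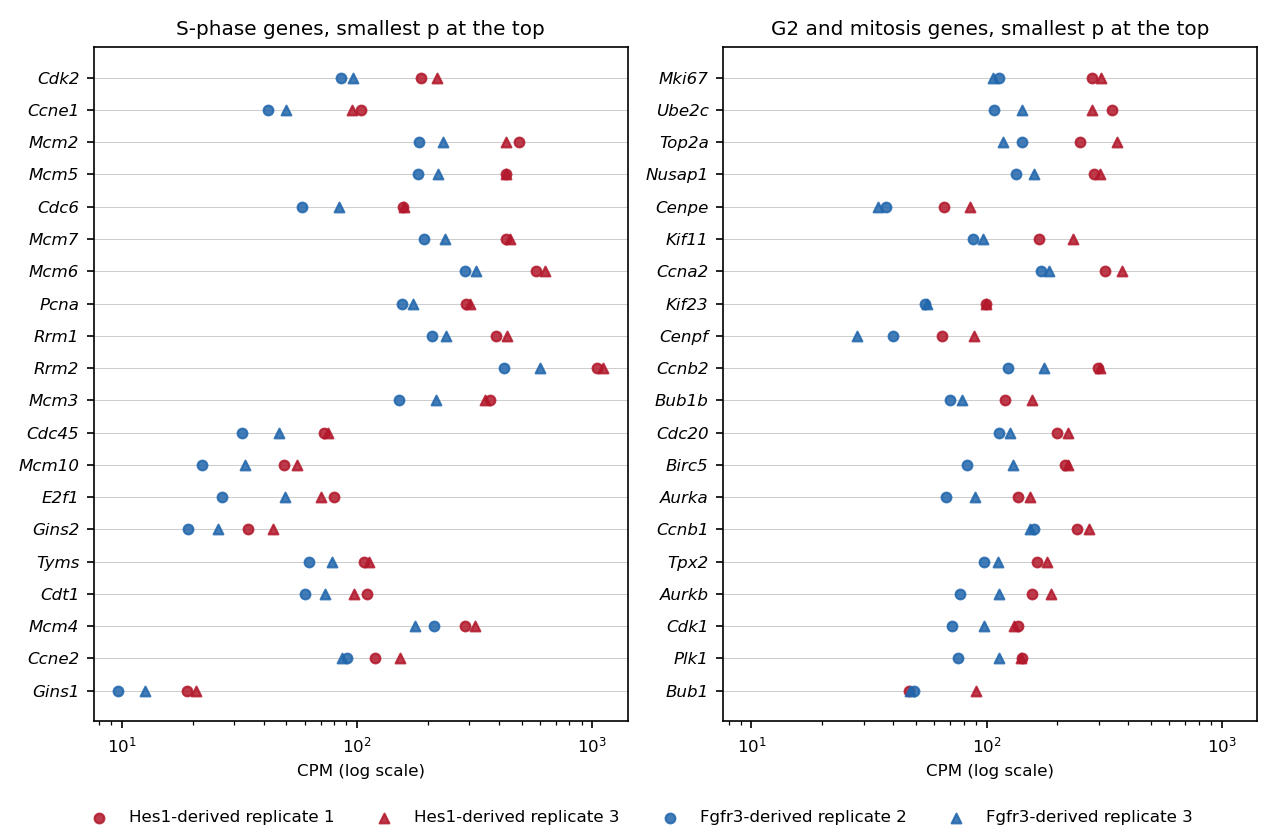
CPM (log axis) of the 20 S-phase genes (left) and the 20 G2 and mitosis genes (right), 1 point for each library. The Hes1-derived libraries (red) lie right of the Fgfr3-derived libraries (blue) for 39 of 40 genes, and Bub1 at the bottom right is the exception.

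Lists of blood-cell markers also had medians above 0. The pan-leukocyte list had a median log2 fold change of 1.40 with 13 of 24 genes higher. The B lymphocyte list had a median of 2.21 with 20 of 22 higher, and the erythroid list 1.70 with 18 of 19 tested genes higher. The neutrophil list had a median of 0.97 with 1 of 22 higher, a count near the 5.24% of all genes called higher. These 4 lists were all higher in sum in both Hes1-derived libraries. B lymphocyte markers summed to 3571 and 3399 CPM in Hes1-derived libraries, against 521.7 and 938.9 CPM in Fgfr3-derived libraries. Erythroid markers summed to 10850 and 6323 CPM in Hes1-derived libraries, against 1671 and 2575 CPM in Fgfr3-derived libraries. Neutrophil markers summed to 32870 and 39010 CPM in Hes1-derived libraries, against 11390 and 27210 CPM in Fgfr3-derived libraries. Of these 4 lists only Hbb-b2, in the erythroid list, was at 0 in any library. A T and NK lymphocyte list had a median of 1.34 with 2 of 13 tested genes higher, and a macrophage and osteoclast list 0.34 with 3 of 14 higher. A megakaryocyte list had a median of 0.21, with 0 of 11 higher and 1 lower. Its sums overlapped, at 102.3 and 61.5 CPM in Hes1-derived libraries, against 150.1 and 97.5 CPM in Fgfr3-derived libraries. The part of blood cells in the difference of the replication and mitosis genes was not tested. In bulk RNA, more dividing cells and more RNA of these genes in each cell cannot be told apart.

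The direction depended on what the reads were counted against. For every 1000 reads of the pan-leukocyte list there were 681 and 623 S-phase reads in Hes1-derived replicates 1 and 3, against 1101 and 656 in Fgfr3-derived replicates 2 and 3. For G2 and mitosis the reads numbered 476 and 471 in Hes1-derived libraries, against 824 and 465 in Fgfr3-derived libraries. The groups therefore overlapped on this scale, and Fgfr3-derived replicate 2 was the highest. For every 1000 B lymphocyte reads the S-phase reads numbered 1495 and 1633 in Hes1-derived libraries, against 4789 and 3242 in Fgfr3-derived libraries. For every 1000 erythroid reads they numbered 492 and 878 in Hes1-derived libraries, against 1495 and 1182 in Fgfr3-derived libraries. On both of these scales the Hes1-derived libraries lay below the Fgfr3-derived libraries, as they did for G2 and mitosis reads. For every 1000 B lymphocyte reads the G2 and mitosis reads numbered 1045 and 1234 in Hes1-derived libraries, against 3585 and 2300.0 in Fgfr3-derived libraries, and for every 1000 erythroid reads 344 and 663 in Hes1-derived libraries, against 1119 and 839 in Fgfr3-derived libraries. For every 1000 neutrophil reads the groups overlapped, with 162 and 142 S-phase reads in Hes1-derived libraries, against 219 and 112 in Fgfr3-derived libraries. For every 1000 stroma reads the S-phase reads numbered 172 and 279 in Hes1-derived libraries, against 49.7 and 89.1 in Fgfr3-derived libraries. The G2 and mitosis reads were 119.9 and 211 in Hes1-derived libraries, against 37.2 and 63.2 in Fgfr3-derived libraries, so on the stromal scale the Hes1-derived libraries lay above the Fgfr3-derived libraries. In fits scaled to the pan-leukocyte list all 40 members had a log2 fold change below 0 and none passed, also at an unadjusted p under 0.05, beside 33.6% of all genes called lower, with medians of −0.44 for S-phase and −0.48 for G2 and mitosis genes. In these fits the median of all genes was itself −1.48, and relative to it the members' medians were 1.04 and 0.99. Such a scaling changes only the factor of each library, which shifts all genes nearly alike. The members' distance from the middle of all genes (0.97 and 0.96 with TMM) was therefore nearly fixed in advance. It is no separate result, here or for the stroma and eGFP scalings that follow. With pan-leukocyte scaling the members' own sign turned. Scaling to the stroma list put the median of all genes at 0.73 and called 12 S-phase and 11 G2 and mitosis genes higher, beside 9.53% of all genes. Scaling to eGFP reads put it at 0.83 and called no member, beside 2.26% of all genes (36 of 40 had an unadjusted p under 0.05), and relative to the median of all genes the members' medians were 0.92 and 0.98. Over all genes, the calls were 751 higher and 940 lower with TMM, 1366 and 102 with stroma scaling, 324 and 19 with eGFP scaling, and 14 and 4820 with pan-leukocyte scaling.

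**Figure D2:**
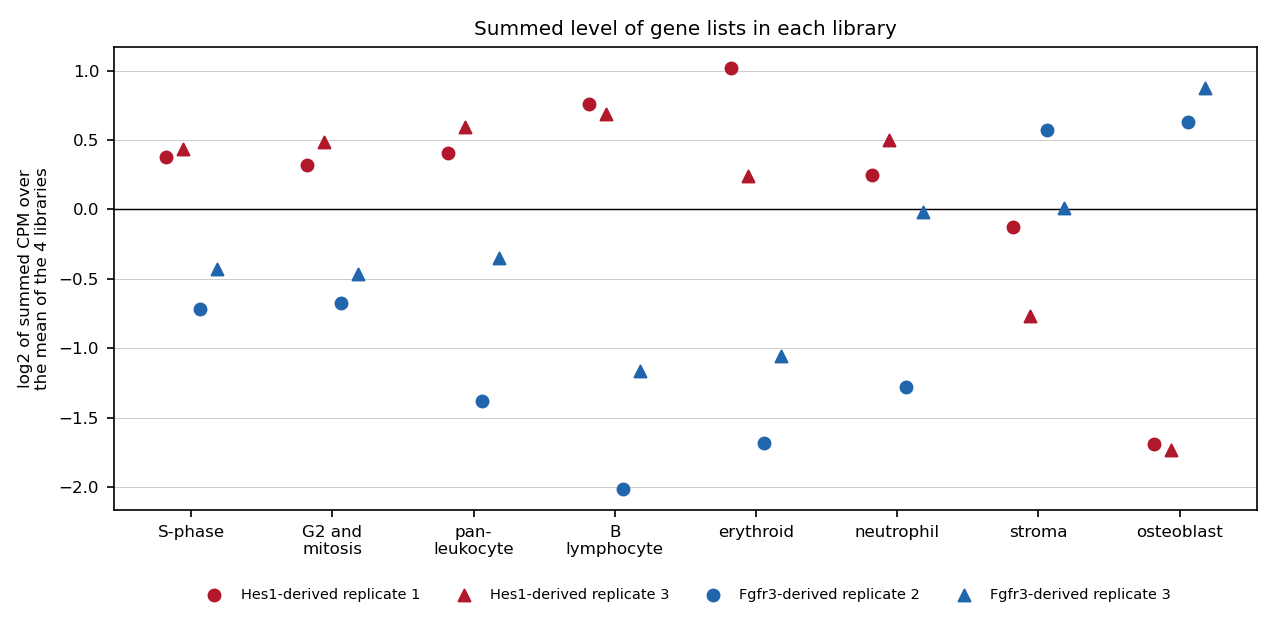
Summed CPM of each gene list in each library, as log2 of its ratio to the mean of the 4 libraries. S-phase and G2 and mitosis genes sit higher in both Hes1-derived libraries, as do pan-leukocyte, B lymphocyte, erythroid and neutrophil markers, while stroma and osteoblast genes sit lower.

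The balance between the phases did not separate the groups. Summed per kilobase of transcript, S-phase genes reached 2000.0 and 2080.0 CPM per kilobase in Hes1-derived replicates 1 and 3, against 928.8 and 1142 in Fgfr3-derived replicates 2 and 3. The G2 and mitosis genes reached 1674 and 1763 in Hes1-derived libraries, against 770.4 and 961.6 in Fgfr3-derived libraries. The ratio of G2 and mitosis to S-phase level was 0.837 and 0.848 in Hes1-derived libraries, against 0.829 and 0.842 in Fgfr3-derived libraries. These ratios overlapped between the groups, and averaged 0.842 ± 0.0078 in Hes1-derived libraries, against 0.836 ± 0.0091 in Fgfr3-derived libraries (SD, n = 2 each). The ratio was also taken from medians over members, with each gene relative to its mean over all libraries. It was then 0.943 and 1.02 in Hes1-derived libraries, against 1.11 and 0.980 in Fgfr3-derived libraries. These values overlapped too and spread more widely than those from sums. An exact test of 2 libraries against 2 could not reach a p below 0.05, and none was run on the ratio.

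To show the letters that E2F and CHR motifs take in these promoters, the 250 bases before the start are printed for 6 genes, the 3 of each phase with the smallest p among those that rose, hold its motif there and have a RefSeq start at or before the start of the GENCODE M21 gene. RefSeq windows (GRCm38.p6) of 300 bases, from 250 before to 50 after each start, were at hand for 33 of the 40 genes. For 5 of these, Cdc6, Mcm7, Pcna, E2f1 and Ccnb1, the RefSeq start lies over 50 bases inside the GENCODE gene, so their windows hold sequence that GENCODE places after the start. Motifs were searched on both strands. A match to E2F was TTCCCGC or the variant TTCGCGC, and also TTGCCGC or the variant TTGGCGC. A match to CHR was TTTGAA or its variant TTCGAA. The CCAAT box, a common companion of CHR, was searched too, and some E2F matches in the windows of Mcm7 and Ccnb1 share letters with a CCAAT match. The sequences run 5′ to 3′ on the gene's strand, with E2F and CHR letters in capitals. Cdk2 lies at chr10:128705052-128705301 (minus strand), Mcm5 at chr8:75109259-75109508 (plus), Mcm6 at chr1:128359706-128359955 (minus), Mki67 at chr7:135716380-135716629 (minus), Top2a at chr11:99024190-99024439 (minus) and Kif11 at chr19:37376132-37376381 (plus).
Cdk2: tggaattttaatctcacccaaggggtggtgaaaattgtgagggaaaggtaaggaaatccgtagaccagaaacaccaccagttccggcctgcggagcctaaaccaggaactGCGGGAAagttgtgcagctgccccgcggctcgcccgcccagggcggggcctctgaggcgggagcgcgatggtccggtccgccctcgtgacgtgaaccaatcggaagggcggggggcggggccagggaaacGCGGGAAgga
Mcm5: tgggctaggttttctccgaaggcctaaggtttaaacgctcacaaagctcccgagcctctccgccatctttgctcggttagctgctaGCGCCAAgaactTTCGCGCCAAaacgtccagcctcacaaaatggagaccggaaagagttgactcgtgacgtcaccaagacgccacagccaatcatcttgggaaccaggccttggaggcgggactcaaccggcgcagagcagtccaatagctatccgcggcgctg
Mcm6: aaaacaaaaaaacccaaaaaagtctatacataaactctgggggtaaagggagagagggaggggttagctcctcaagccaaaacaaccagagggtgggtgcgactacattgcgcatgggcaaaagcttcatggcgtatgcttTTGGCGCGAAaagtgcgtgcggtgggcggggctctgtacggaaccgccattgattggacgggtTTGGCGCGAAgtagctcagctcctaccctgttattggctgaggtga
Mki67: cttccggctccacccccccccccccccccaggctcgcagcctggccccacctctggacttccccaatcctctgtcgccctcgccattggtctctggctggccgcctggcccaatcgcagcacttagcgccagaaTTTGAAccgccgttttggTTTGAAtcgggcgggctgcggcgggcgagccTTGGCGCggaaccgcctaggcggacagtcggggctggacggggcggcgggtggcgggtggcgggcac
Top2a: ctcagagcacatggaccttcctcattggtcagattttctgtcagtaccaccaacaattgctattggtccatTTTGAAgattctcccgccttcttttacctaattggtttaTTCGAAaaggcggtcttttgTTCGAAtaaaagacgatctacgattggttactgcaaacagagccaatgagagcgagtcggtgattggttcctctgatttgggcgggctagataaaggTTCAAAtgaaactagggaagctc
Kif11: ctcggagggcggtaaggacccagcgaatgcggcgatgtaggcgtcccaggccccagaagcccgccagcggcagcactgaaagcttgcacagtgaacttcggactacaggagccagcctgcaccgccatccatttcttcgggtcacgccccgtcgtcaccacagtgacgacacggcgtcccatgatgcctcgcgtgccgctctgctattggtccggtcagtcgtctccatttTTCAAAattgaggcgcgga

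The E2F letters stood in the windows of 9 of 16 S-phase genes and 3 of 17 G2 and mitosis genes, against 18.7% of 10101 tested genes in the same table and 10.9% of all 27025. The CHR letters stood in 3 of 16 S-phase genes and 13 of 17 G2 and mitosis genes, against 16.6% of tested genes and 21.7% of all genes. CCAAT was found in 11 of 16 and 15 of 17, against 42.9% of tested genes. Top2a held 4 CHR matches, at −179, −140, −120 and −23 from the start, and Mcm5 held 3 E2F matches at −164, −152 and −149. E2F letters were held by 8 of 11 S-phase genes that rose and by 1 of 5 that did not pass. Mcm4, Gins1, Gins2 and Ccne2, which did not pass either, had no window. All 20 S-phase genes lay higher in both Hes1-derived libraries, so this split is by the threshold and not by direction, and it was not tested. Of the G2 and mitosis genes, CHR letters were in 10 of 13 windows of those that rose and in 3 of 4 of the others. Mcm2, Pcna and Ccne1 rose and held none of the E2F letters searched in this window. In the 250 bases before the start alone, CHR letters were in 8 of 17 G2 and mitosis genes, since those of Cenpf, Kif23, Bub1, Plk1 and Aurka begin 3 to 33 bases after it. There E2F letters were in 7 of 16 S-phase genes, since those of Mcm3, which rose, and Cdt1, which did not pass, lie after the start. These matches describe letters and not bound sites.

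Among the helicase genes, 5 of 6 rose, with a median log2 fold change of 1.01. Mcm2 reached 488 and 432 CPM in the Hes1-derived libraries (replicates 1 and 3), against 183 and 231 CPM in the Fgfr3-derived libraries (replicates 2 and 3), a log2 fold change of 1.15 ± 0.23 (SE; edgeR adjusted p = 0.027). Mcm5 stood at 429 and 429.9 CPM in Hes1-derived libraries, against 182 and 221 CPM in the Fgfr3-derived libraries (1.09 ± 0.22, adjusted p = 0.027). Mcm7 stood at 431 and 447 CPM in Hes1-derived libraries, against 193 and 237 CPM in the Fgfr3-derived libraries (1.03 ± 0.22, adjusted p = 0.031). For all 3 Fgfr3-derived replicate 2 was the lowest library, and for Mcm5 and Mcm7 the Hes1-derived libraries agreed more closely than the Fgfr3-derived libraries. Mcm6 (0.99 ± 0.23) and Mcm3 (0.97 ± 0.25) also rose. Mcm4 did not pass, at 287 and 316 CPM in Hes1-derived libraries, against 212 and 176 CPM in the Fgfr3-derived libraries (0.64 ± 0.22, adjusted p = 0.098). It was 1 of 2 S-phase genes, with Ccne2, that were higher in Fgfr3-derived replicate 2 than in replicate 3. The 6 proteins form a ring with 1 copy of each, yet the transcript levels per kilobase differed. Mcm6 was the highest in every library, with means of 207 CPM per kilobase in Hes1-derived and 104 in Fgfr3-derived libraries. Mcm4 was the lowest in both Hes1-derived libraries and in Fgfr3-derived replicate 3, with means of 84.0 in Hes1-derived and 54.0 in Fgfr3-derived libraries. The Fgfr3-derived levels per kilobase of Mcm2, Mcm3 and Mcm5 overlapped, with means of 61.4, 60.7 and 59.6.

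The loading factor Cdc6 rose, with 156 and 158 CPM in Hes1-derived libraries, against 58.2 and 83.7 CPM in the Fgfr3-derived libraries (1.15 ± 0.24, adjusted p = 0.028). Its partner Cdt1 did not pass, with 110.2 and 97.2 CPM in Hes1-derived libraries, against 60.3 and 72.9 CPM in the Fgfr3-derived libraries (0.64 ± 0.21, adjusted p = 0.093). The groups did not overlap for either gene. None of the 4 genes that activate the helicase passed. Their log2 fold changes were 0.90 ± 0.24 for Cdc45 (adjusted p = 0.054), 0.92 ± 0.27 for Mcm10, 0.81 ± 0.26 for the GINS subunit Gins2 and 0.83 ± 0.29 for Gins1. Gins1 had the fewest reads of the S-phase genes, at 18.8 and 20.6 CPM in Hes1-derived libraries, against 9.62 and 12.5 CPM in Fgfr3-derived cells (edgeR adjusted p = 0.10). For all 4 the Hes1-derived libraries nonetheless lay above the Fgfr3-derived libraries.

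Cdk2, the kinase that starts S phase, had the smallest p of the S-phase genes. It stood at 186 and 218 CPM in Hes1-derived libraries, against 85.6 and 96.3 CPM in the Fgfr3-derived libraries (1.15 ± 0.21, adjusted p = 0.022). Ccne1, which encodes cyclin E1, stood at 104 and 94.8 CPM in Hes1-derived libraries, against 41.9 and 49.7 CPM in the Fgfr3-derived libraries (1.12 ± 0.21, adjusted p = 0.024). The other cyclin E gene, Ccne2, did not pass, at 119 and 153 CPM in Hes1-derived libraries, against 90.5 and 86.6 CPM in the Fgfr3-derived libraries (0.62 ± 0.21, adjusted p = 0.10). E2f1, an activator of S-phase genes, did not pass (0.98 ± 0.31, adjusted p = 0.082), and on the log2 scale its Fgfr3-derived libraries were the furthest apart of any member, at 26.7 and 49.2 CPM. Cdk2 and Ccne2 are among 10 members whose exons overlap a gene on the other strand in GENCODE M21. The others are Ccna2, Cdc20, Cdc45, Gins2, Mcm7, Nusap1, Plk1 and Ube2c. Without a stated strand setting, their counts may include the neighbour's reads or lack reads from the shared stretch, and neither was tested. The overlap is shortest for Cdk2 and longest for Gins2, followed by Ccne2 and Ube2c.

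Genes of the sliding clamp and of nucleotide supply rose in 3 of 4 cases. Pcna, the clamp that holds DNA polymerase on its template, stood at 291 and 301 CPM in Hes1-derived libraries, against 155 and 173 CPM in the Fgfr3-derived libraries (0.85 ± 0.20, adjusted p = 0.041). Both ribonucleotide reductase subunits rose, the constitutive Rrm1 by 0.88 ± 0.22 and the S-phase subunit Rrm2 by 1.09 ± 0.28. Rrm2 had the most reads of any member, with 1045 and 1115 CPM in Hes1-derived libraries, against 421 and 596 CPM in Fgfr3-derived ones, and it was also the highest per kilobase, with means of 492 CPM per kilobase in Hes1-derived and 232 in Fgfr3-derived libraries. Thymidylate synthase, Tyms, did not pass (0.64 ± 0.21, adjusted p = 0.092).

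**Figure D3:**
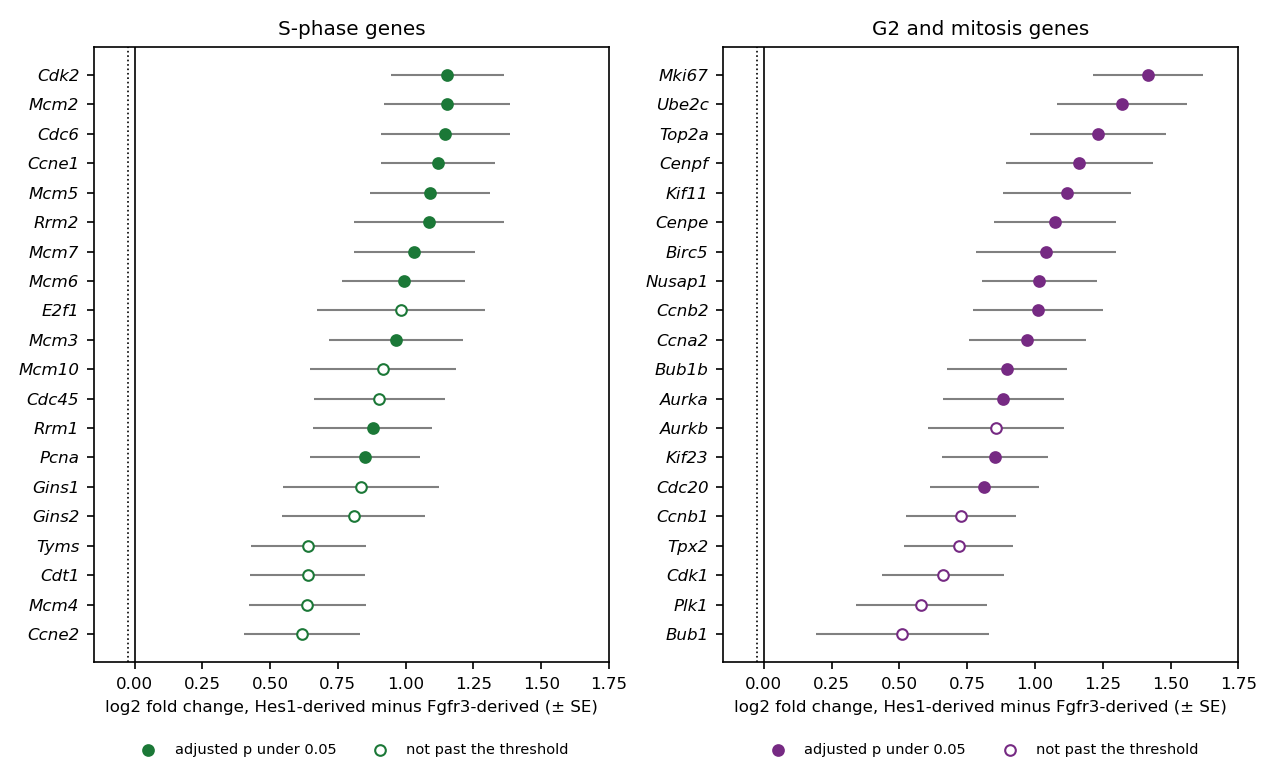
Log2 fold change (Hes1-derived minus Fgfr3-derived) with its standard error for the S-phase genes (left) and the G2 and mitosis genes (right), with filled points for an adjusted p under 0.05 and a dotted line at the median of all tested genes (−0.02). Values run from 0.62 for Ccne2 to 1.15 for Cdk2 on the left and from 0.51 for Bub1 to 1.42 for Mki67 on the right.

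Among genes of G2 and mitosis, the proliferation marker Mki67, whose protein coats mitotic chromosomes, had the smallest p and the largest fitted difference of the 40 members. It stood at 279.7 and 306 CPM in Hes1-derived libraries, against 112 and 107 CPM in the Fgfr3-derived libraries (1.42 ± 0.20, adjusted p = 0.016). Top2a, the topoisomerase that untangles sister chromatids, stood at 251 and 358 CPM in Hes1-derived libraries, against 142 and 117 CPM in the Fgfr3-derived libraries (1.23 ± 0.25, adjusted p = 0.028). Mki67 stayed between 1.35 and 1.48 when any library was left out, and lost its call without Fgfr3-derived replicate 2 (adjusted p = 0.052).

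Of the mitotic cyclins and their kinase, Ccna2 (0.97 ± 0.21) and Ccnb2 (1.01 ± 0.24) rose. Ccnb1 (0.73 ± 0.20, adjusted p = 0.0599) did not pass. Cdk1, the kinase that these cyclins activate to drive entry into mitosis, did not pass either, at 136 and 131 CPM in Hes1-derived libraries, against 71.5 and 97.8 CPM in the Fgfr3-derived libraries (0.66 ± 0.23, adjusted p = 0.0997). Cdk1 had a smaller fitted difference than Cdk2, 0.66 against 1.15 on the log2 scale, and the difference between these values was not tested.

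Of the kinases, Aurka, which acts at spindle poles, rose (0.88 ± 0.22), and Aurkb, which acts at centromeres, did not pass (0.86 ± 0.25, adjusted p = 0.069). Birc5, the survivin partner of Aurkb, rose (1.04 ± 0.26), with 215 and 222 CPM in Hes1-derived libraries, against 82.7 and 129.5 CPM in Fgfr3-derived libraries, a pair that spread widely. Plk1 did not pass, with 141 CPM in both Hes1-derived libraries, against 75.5 and 113 CPM in the Fgfr3-derived libraries (0.58 ± 0.24, adjusted p = 0.16). For Plk1 the Hes1-derived libraries were nearly equal and the Fgfr3-derived libraries were far apart.

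Genes of the kinetochore and its checkpoint, which link chromosomes to spindle fibres and hold anaphase back, rose in 3 of 4 cases. Cenpe, a kinetochore motor, stood at 66.1 and 84.9 CPM in Hes1-derived libraries, against 37.3 and 34.5 CPM in the Fgfr3-derived libraries (1.07 ± 0.22, adjusted p = 0.029). Cenpf (1.16 ± 0.27) and the checkpoint kinase gene Bub1b (0.90 ± 0.22) also rose. Bub1 had the largest p, with 46.6 and 90.3 CPM in Hes1-derived libraries, against 49.1 and 47.1 CPM in the Fgfr3-derived libraries (0.51 ± 0.32, adjusted p = 0.33). Hes1-derived replicate 1 lay below both Fgfr3-derived libraries for this gene, so replicate 3 alone carried the difference, and without it the log2 fold change was −0.05.

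Both genes of the anaphase-promoting complex rose, and both are among the 10 members whose exons overlap a gene on the other strand. Ube2c, its ubiquitin-conjugating enzyme, stood at 342 and 280.2 CPM in Hes1-derived libraries, against 107 and 142 CPM in the Fgfr3-derived libraries (1.32 ± 0.24, adjusted p = 0.022). Cdc20, the activator that triggers anaphase, stood at 199 and 221 CPM in Hes1-derived libraries, against 113 and 126 CPM in the Fgfr3-derived libraries (0.81 ± 0.20, adjusted p = 0.044). Cdc20 lost its call without any one of the libraries (adjusted p between 0.0526 and 0.19).

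Of the spindle genes 3 of 4 rose. The motor Kif11, which pushes spindle poles apart, stood at 167 and 234 CPM in Hes1-derived libraries, against 87.5 and 97.0 CPM in the Fgfr3-derived libraries (1.12 ± 0.24, adjusted p = 0.0295). Nusap1, which bundles spindle microtubules, stood at 286 and 305 CPM in Hes1-derived libraries, against 133 and 159 CPM in the Fgfr3-derived libraries (1.02 ± 0.21, adjusted p = 0.029). Kif23, a motor of cell division's final cut, rose by 0.85 ± 0.20 and had nearly equal libraries within each group. Tpx2 did not pass (0.72 ± 0.20, adjusted p = 0.062).

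Libraries of the same group differed in a way that depended on the gene. Fgfr3-derived replicate 3 exceeded replicate 2 for 18 of 20 S-phase genes and 14 of 20 G2 and mitosis genes, with median log2 differences of 0.31 and 0.16, against 0.00 over all genes. The extremes were E2f1 at 0.88 and Cenpf at −0.51. Hes1-derived replicate 3 exceeded replicate 1 for 15 of 20 S-phase genes and 16 of 20 G2 and mitosis genes, with median differences of 0.07 and 0.16, against −0.04 over all genes. The extremes were Bub1 at 0.96 and Ube2c at −0.29. Top2a, Cenpf, Cenpe, Mki67, Ccnb1, Bub1, Mcm4 and Ccne2 were higher in Hes1-derived replicate 3 and lower in Fgfr3-derived replicate 3 than in the other library of each group. Pan-leukocyte markers were likewise higher in Fgfr3-derived replicate 3 than in replicate 2 (4642 against 2270 CPM). They were also higher in Hes1-derived replicate 3 than in replicate 1 (8914 against 7836 CPM), as were neutrophil markers (39010 against 32870). Erythroid markers went the other way in the Hes1-derived pair (6323 against 10850 CPM), as did B lymphocyte markers (3399 against 3571). The part that blood cells have in these differences was not tested.

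**Figure D4:**
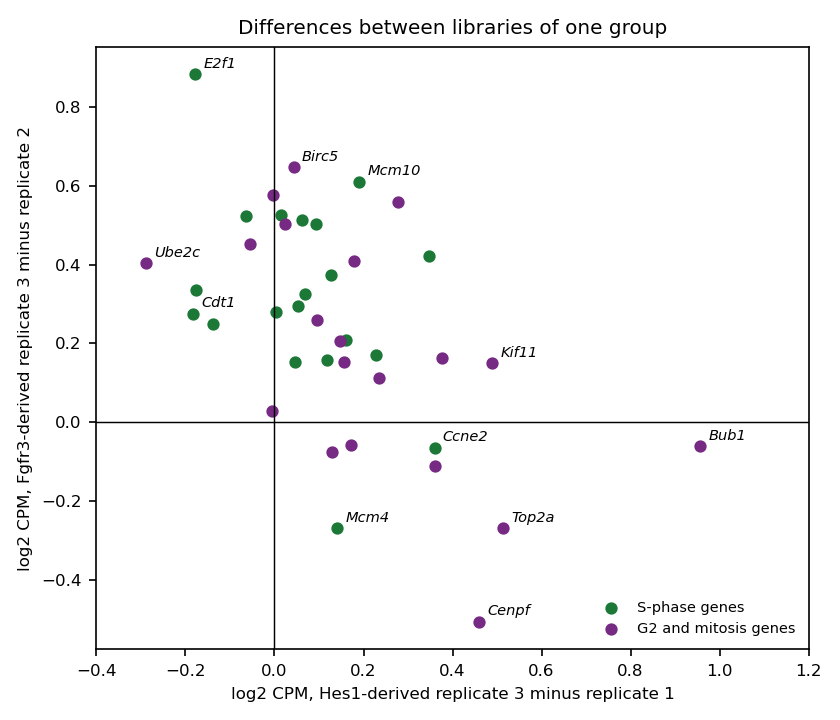
Log2 difference in CPM between the libraries of each group, Hes1-derived replicate 3 minus replicate 1 on the horizontal axis and Fgfr3-derived replicate 3 minus replicate 2 on the vertical axis, 1 point for each member. Most S-phase genes lie above 0 on the vertical axis (18 of 20), and Bub1 lies far to the right at 0.96.

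Other genes of the same machinery were called in the same direction. Of 47 further replication genes 14 rose and none fell, with a median log2 fold change of 0.72. Over all genes 5.24% were called higher and 6.56% lower. The 4 with the smallest p were Pole, the catalytic subunit of leading-strand polymerase (1.38 ± 0.25), Pola2 of the primase complex (1.01 ± 0.20), Wdhd1, which tethers that complex to the fork (1.12 ± 0.23), and Rpa2, which coats single-stranded DNA (0.97 ± 0.21). Pole stood at 29.2 and 32.6 CPM in Hes1-derived libraries, against 11.3 and 12.4 CPM in Fgfr3-derived libraries. The origin recognition genes Orc3 and Orc4 were the only replication genes with a log2 fold change below 0 (−0.26 and −0.32, neither past the threshold, and above 0 with stroma or eGFP scaling). Of 67 further mitosis genes 16 rose and none fell, with a median of 0.82. Ncapd2, a condensin subunit that compacts chromosomes, stood at 195 and 178 CPM in Hes1-derived libraries, against 70.1 and 87.4 CPM in the Fgfr3-derived libraries (1.24 ± 0.21). The kinetochore scaffold Casc5 (1.15 ± 0.22), the inhibitor of the anaphase-promoting complex Fbxo5 (1.15 ± 0.22) and the cytokinesis gene Racgap1 (0.98 ± 0.21) had the next smallest p. No gene of either list passed without Fgfr3-derived replicate 2.

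Of 32 tested cell cycle regulators 5 rose and none fell, against 5.24% and 6.56% of all genes, with a median of 0.53. Both Hes1-derived libraries lay above both Fgfr3-derived libraries for 21 regulators and below for 4, against 29.8% and 32.1% of all genes. The 4, named after their values were seen, were E2f5 (−0.85), Myc (−0.82), Ccnd1 (−0.56) and E2f3 (−0.34), none past the threshold. E2f2, an E2F activator, stood at 415 and 311 CPM in Hes1-derived libraries, against 72.6 and 130.9 CPM in the Fgfr3-derived libraries (1.83 ± 0.33, adjusted p = 0.022). Tfdp2, which encodes a dimer partner of E2F proteins, stood at 255 and 179 CPM in Hes1-derived libraries, against 58.6 and 60.6 CPM in the Fgfr3-derived libraries (1.86 ± 0.24, adjusted p = 0.016). Unlike most members, both were higher in Hes1-derived replicate 1 than in replicate 3. The phosphatase gene Cdc25b (1.68 ± 0.24) and the repressor E2f8 (1.34 ± 0.24) also rose. Among cyclins D, named after their values were seen, none passed. Ccnd3 stood at 994 and 912 CPM in Hes1-derived libraries, against 385 and 638 CPM in Fgfr3-derived libraries. Ccnd1 went the other way, at 8.31 and 7.62 CPM in Hes1-derived libraries, against 9.94 and 13.6 CPM in Fgfr3-derived libraries. Ccnd2 overlapped between the groups, at 132 and 108 CPM in Hes1-derived and 228 and 123 CPM in Fgfr3-derived libraries.

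Of 30 tested inhibitors and quiescence genes, 2 rose and 3 fell, with a median of 0.09, and these counts are near the shares over all genes (5.24% higher and 6.56% lower). Cdkn1a, which encodes the CDK inhibitor p21, fell to 180.2 and 148 CPM in Hes1-derived libraries, against 346 and 383 CPM in the Fgfr3-derived libraries (−1.15 ± 0.22, adjusted p = 0.025). Klf4 (−1.40 ± 0.21) and Gas1 (−1.15 ± 0.23), both linked to growth arrest, fell as well. The retinoblastoma gene Rb1, a brake on E2F, rose to 112 and 119.7 CPM in Hes1-derived libraries, against 57.0 and 63.5 CPM in the Fgfr3-derived libraries (0.94 ± 0.20, adjusted p = 0.0297), and Foxo1 rose by 0.79 ± 0.20. None of the 5 calls was made without Fgfr3-derived replicate 2, and no gene of this list fell after scaling to stroma or eGFP reads. With stroma scaling their log2 fold changes were −0.45 for Cdkn1a, −0.63 for Klf4 and −0.40 for Gas1. Under TMM the stroma list had a median of −0.60 with 4 of 27 genes lower, and an osteoblast list had a median of −1.76 with 12 of 17 lower. The osteoblast genes summed to 6018 and 5818 CPM in Hes1-derived libraries, against 30040 and 35590 CPM in Fgfr3-derived libraries. The part of either cell type in these calls was not tested.

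**Figure D5:**
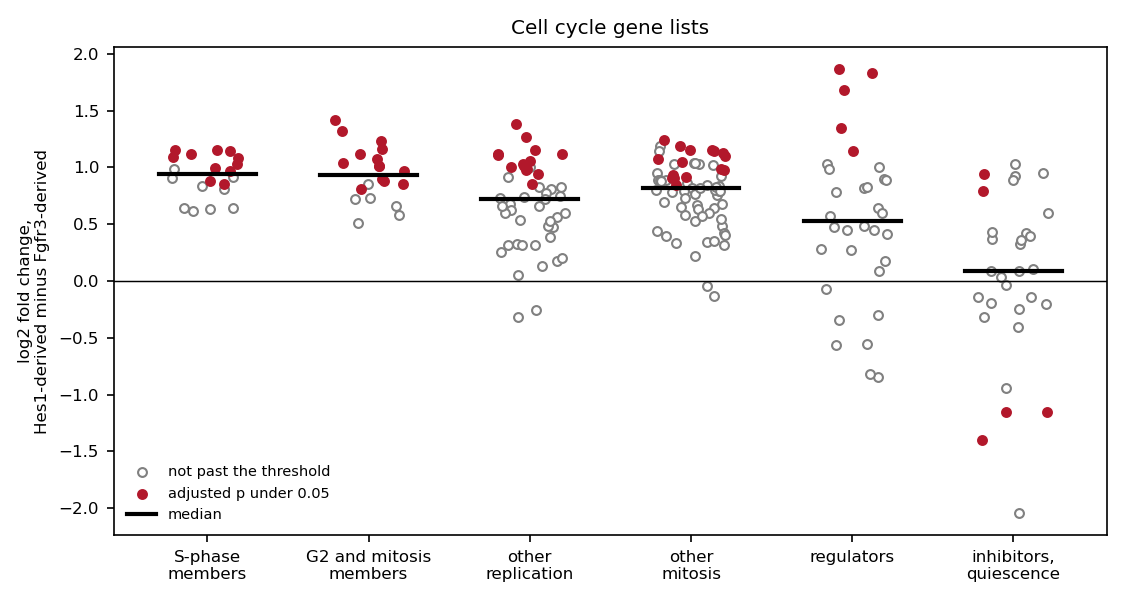
Log2 fold change (Hes1-derived minus Fgfr3-derived) of each tested gene of the 6 cell cycle lists, with filled points for an adjusted p under 0.05 and bars at the medians. The medians are 0.94 and 0.93 for the members, 0.72 for other replication genes, 0.82 for other mitosis genes, 0.53 for regulators and 0.09 for inhibitors and quiescence genes.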

How the data were processed

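The deposited counts are whole numbers of reads for each symbol in each library, which the authors produced using TopHat2 2.0.13, Bowtie2 2.2.1 and HTSeq among other tools on mm10, per the submitters' processing notes, which give no role or order. The annotation and strand setting are not given in the sources used here. The deposited size-factor-scaled and regularized log tables were not used.

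Counts were tested with edgeR 4.0.16 (quasi-likelihood F test, TMM factors, robust dispersions, filter at a minimum count of 10, R 4.3.3), Hes1-derived minus Fgfr3-derived, with Benjamini-Hochberg adjustment over 14330 genes. SE was taken as the size of the log2 fold change over √F. Residual degrees of freedom among libraries were 2, and the biological coefficient of variation was 27.8%. Alternatives were DESeq2 1.42.0, limma-voom (limma 3.58.1), other scalings and filters, and leaving out each library. The fits were also run on simulated counts that gave every gene the same spread and drew libraries independently. These data differ in both respects, so that run cannot vouch for the calls made here.

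Members, gene lists and alternatives were chosen with earlier results of these data known. Values in every library are given for the 6 members with the smallest and the 2 with the largest p in each phase, for Pcna, Cdt1, Cdk2, Cdc20, Mki67, Top2a and Cdk1, and for others chosen after their values were seen. Each other cell cycle list contributed up to 4 named genes a direction, by smallest p. Of 48 further replication genes listed, 1 had no row, and of 24 erythroid genes 4 had none. Levels per kilobase used the longest APPRIS principal transcript of GENCODE M21.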

Additional observations from a re-analysis of the deposited data

How the results depend on the processing

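The log2 fold change of all 40 members stayed above 0 under every scaling, filter and test tried except pan-leukocyte scaling, and when any library was left out, except for Bub1 (range over the left-out libraries −0.0462 to 0.91). Relative to pan-leukocyte reads the log2 fold changes of S-phase genes were −0.21 for Cdc6, −0.24 for Mcm2, −0.28 for Rrm2, −0.28 for Ccne1, −0.28 for Cdk2, −0.31 for Mcm5, −0.31 for E2f1, −0.37 for Mcm7, −0.39 for Mcm3, −0.43 for Mcm10, −0.44 for Mcm6, −0.46 for Cdc45, −0.54 for Rrm1, −0.55 for Gins1, −0.58 for Gins2, −0.58 for Pcna, −0.76 for Cdt1, −0.76 for Tyms, −0.86 for Mcm4 and −0.86 for Ccne2. Those of G2 and mitosis genes were −0.0501 for Ube2c, −0.0506 for Mki67, −0.28 for Top2a, −0.30 for Birc5, −0.32 for Kif11, −0.35 for Ccnb2, −0.38 for Cenpf, −0.39 for Nusap1, −0.41 for Cenpe, −0.47 for Ccna2, −0.50 for Aurka, −0.51 for Aurkb, −0.54 for Bub1b, −0.59 for Kif23, −0.62 for Cdc20, −0.70 for Tpx2, −0.71 for Cdk1, −0.74 for Ccnb1, −0.77 for Plk1 and −0.98 for Bub1. None of the 40 passed there (adjusted p between 0.20 and 0.95). In this scaling the median of all genes is −1.48. Of the other genes named, Pole (−0.0463), Pola2 (−0.41), Wdhd1 (−0.26), Rpa2 (−0.43), Ncapd2 (−0.15), Casc5 (−0.28), Fbxo5 (−0.23), Racgap1 (−0.44), E2f8 (−0.023), Rb1 (−0.49), Foxo1 (−0.68) and Ccnd3 (−0.42) also turned below 0 there. Orc3, Orc4 and Ccnd2 turned above 0 with stroma scaling (0.53, 0.52 and 0.25) and eGFP scaling (0.64, 0.64 and 0.32). Values of Myc, E2f5, E2f3 and Ccnd1 under the alternatives are not given here.

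The number of members called was between 24 and 33 of 40 with DESeq2, voom, RLE, upper-quartile or library-total factors, non-robust dispersions and both filters (with 4.72 to 9.48% of all genes higher), and 0 under eGFP and pan-leukocyte scaling (0 S-phase and 0 G2 and mitosis genes each). With a library left out, 0 to 12 S-phase genes and 0 to 11 G2 and mitosis genes were called. Over all genes, 80 to 1153 were higher and 158 to 963 lower with a library left out, and DESeq2 called 1411 higher and 1552 lower, stroma scaling 1366 and 102, eGFP scaling 324 and 19, and pan-leukocyte scaling 14 and 4820. With a library left out, calls of higher genes ran from 0 to 20 among other replication genes, 0 to 23 among other mitosis genes, 1 to 10 among regulators and 0 to 3 among inhibitors, and 0 to 4 inhibitors were lower. Other replication genes had 0 higher under eGFP scaling and 0 higher and 2 lower under pan-leukocyte scaling. Other mitosis genes had 31 higher with library totals, 26 with stroma scaling, 41 with DESeq2, 27 with voom, 30 with the stricter filter, and 0 with eGFP or pan-leukocyte scaling. Regulators had 2 higher with eGFP scaling, 0 higher and 5 lower with pan-leukocyte scaling, and 11 higher and 2 lower with DESeq2. Inhibitors had 0 higher and 0 lower with eGFP scaling, 0 lower with stroma scaling, 0 higher and 8 lower with pan-leukocyte scaling, and 4 higher and 5 lower with DESeq2. The causes of these moves were not tested.

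The log2 ratio of G2 and mitosis to S-phase level, Hes1-derived minus Fgfr3-derived, was 0.0108 from sums. It had the opposite sign from medians over members (−0.0857), and ran from −0.0003 to 0.0219 from sums with a library left out. CHR letters were in 13 G2 and mitosis genes over the whole window and in 8 over the 250 bases before the start. For E2F letters in S-phase genes these counts were 9 and 7. No paired analysis was possible because the groups share only replicate number 3. With 1 library left in a group, that library is assumed to vary like the other group. The fewest reads of any member in a library were 244.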
